A study of Equus caballus with 20 samples.

Results

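The oviduct on the side of ovulation was compared between pregnant and cyclic mares. This is the tube in which a 4-day equine embryo lies, so the comparison addresses how the epithelium around the embryo differs from that of a cycle without pregnancy. It holds 10 of the 20 RNA sequencing libraries of the series, chosen by their labels: 5 from pregnant ipsilateral oviducts (PI1 to PI5) and 5 from cyclic ipsilateral oviducts (CI1 to CI5). All were epithelial cells of Warmblood mares taken 4 days after ovulation at the junction of ampulla and isthmus, the site between the wide segment near the ovary and the narrow segment near the uterus. The other 10 libraries came from the contralateral oviducts of pregnant (PC) and cyclic (CC) mares, 5 each. They entered the filter on low values and the estimate of the spread behind each standard error and p of the limma test. They are also compared with the ipsilateral libraries, to show where the sides differ and where they do not. The labels give no treatment and no age. They do not state how pregnancy was established, nor whether the cyclic mares had been inseminated or mated. They call the 5 libraries of a group biological replicates but do not say whether libraries with the same number come from the same mare.

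The oviduct epithelium consists mainly of multiciliated cells, whose beating cilia move gametes and the embryo, and secretory cells, which make the fluid around them. In mares, embryos pass on to the uterus whereas unfertilised oocytes are usually retained in the tube, and prostaglandin E2 from the embryo is known to take part in that passage. Interferons, where they are made, act through the receptors IFNAR and IFNGR, the JAK kinases and STAT factors, and induce antiviral effectors such as MX1 and the OAS and IFIT families.

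Values are the deposited normalized counts, which correct for sequencing depth but not for gene length, so levels are compared between libraries and not between genes. The 10 libraries held 2795168 (PI1) to 10126484 (CI2) reads. A count of 0 still allows up to 3 reads, equal to 7.03 normalized counts in PI1 and 1.79 in CI2, a limit that covers counting error only. In 3 libraries 1 feature without a symbol took over 10% of the reads, with 27.8% in PI4, 15.4% in CI3 and 14.4% in PI1, against 0.396 to 8.13% in the other 7 (exact Clopper-Pearson 95% intervals of these shares reached at most 0.0418 percentage points to either side, for counting error only). Where leaving out these 3 libraries moved a printed log2 difference or list median by over 1.5 times, the value without them is printed with it.

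The epithelial label was matched by the markers. EPCAM, an adhesion molecule of epithelia, lay at 1115 to 1916 normalized counts in PI and 1154 to 2382 in CI, and FOXJ1, the transcription factor that drives motile ciliogenesis, at 3448 to 6344 and 3772 to 3996. PAX8, a marker of secretory cells, lay at 1659 to 2146 and 1560 to 2491. The oviductal glycoprotein gene OVGP1 was close to the counting floor, at 2.34 to 15.4 and 1.19 to 9.00. Other cells also left RNA in the libraries. The collagen chain COL1A1 lay at 122 to 1450 in PI and 200 to 493 in CI, the smooth muscle myosin MYH11 at 126 to 305 and 159 to 567, and the T cell receptor chain CD3E at 25.8 to 55.4 and 5.40 to 51.2. The B cell gene MS4A1 and the mesothelial gene CALB2 had no read in any of the 10 libraries. In bulk libraries fewer cells of a type and less RNA per cell cannot be told apart.

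No gene passed the test. Of 14692 features, 0 (0%) reached an adjusted p under 0.05 in limma, and the smallest adjusted p was 0.451. An unadjusted p under 0.05 was reached by 514 features (3.50%), 220 of them higher in pregnancy (1.50%) and 294 lower (2.00%). edgeR and DESeq2 on the recovered reads also called 0, with 494 and 560 features at an unadjusted p under 0.05. The share of these that were higher in pregnancy was 42.8% in limma, 26.0% with values scaled to library totals alone and 53.8% with DESeq2. In 28 features (0.191%) every PI library exceeded every CI library, and in 59 (0.402%) every PI library was below every CI library, with median log2 differences of 0.55 and −0.63. Over all features the log2 difference of PI minus CI had a median of −0.01, and it was above 0 in 48.1% and below 0 in 51.9% of features. Complete separation of 5 against 5 libraries also arises by chance, so genes called without overlap below are not thereby shown to differ. The gene lists and a fixed set of genes were chosen with earlier results of these data known. The share of a list beside that of all features is description, not support. All genes below are therefore described by their values. Log2 differences carry their standard error (SE), levels their standard deviation (SD, n = 5), and the limma adjusted p is 0.999 where none is given.

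Enzymes that cut matrix and peptides held several of the genes with the smallest p. ADAMTS18, a secreted metalloprotease of the extracellular matrix, was at 0, 4.86, 8.49, 0 and 4.72 normalized counts in PI1 to PI5 and at 24.1, 21.5, 57.6, 20.0007 and 25.7 in CI1 to CI5. Every PI library was below every CI library, although no PI library had more than 10 reads. The log2 difference was −2.40 ± 0.49 (adjusted p = 0.451), and −1.53 without PI1, PI4 and CI3. MMP7, matrilysin, a metalloprotease of glandular epithelia, was at 7.03, 21.4, 7.64, 10.1 and 11.8 in PI1 to PI5 and at 85.0, 35.2, 48.6, 28.0 and 75.008 in CI1 to CI5. Again the groups did not overlap, although the PI libraries held only 3 to 22 reads of MMP7. The difference was −1.94 ± 0.42 (adjusted p = 0.492). The 32 metalloproteases, ADAMTS enzymes and inhibitors that passed the filter, of 38 listed, did not share this direction: 13 were higher and 19 lower, with a median of −0.05 that turned to 0.00 with DESeq2 and to 0.11 without the 3 libraries. ADAMTS18 and MMP7, chosen like the list with earlier results of these data known, were the 2 members lower at an unadjusted p under 0.05. They were 6.25% of the list, against 2.00% of all features. The 1 higher member (3.12%, against 1.50%) was ADAMTS6, chosen after its values were seen, at 1.11 ± 0.46.

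Peptidases showed the same mixture. NLN, neurolysin, which cleaves small peptides such as neurotensin and bradykinin, was at 74.98, 83.6, 90.0, 100.6 and 83.9 normalized counts in PI1 to PI5 and at 146, 117, 144, 139 and 152 in CI1 to CI5. The highest PI library was below the lowest CI library, and the spread within each group was small, with means of 86.6 ± 9.49 and 140 ± 13.6 (log2 difference −0.67 ± 0.14, adjusted p = 0.451). ANPEP, the membrane aminopeptidase N, was at 455, 382, 291, 470 and 484 in PI and at 1024, 686, 828, 637 and 537 in CI, again without overlap (−0.82 ± 0.19, adjusted p = 0.509). The peptide transporter SLC15A2, which imports di- and tripeptides, was at 58.6, 90.4, 87.4, 58.7 and 95.7 in PI and at 122, 153, 195, 159 and 138 in CI. These groups were separate too (−0.96 ± 0.27, and −0.63 without the 3 libraries). Of 29 peptidases and peptide transporters 12 were higher and 17 lower, with a median of −0.12. NLN, ANPEP and SLC15A2, like the list, were chosen with earlier results of these data known. These 3 were the members that were lower at an unadjusted p under 0.05 (10.3% of the list, against 2.00% of all features), and the aminopeptidase ENPEP, chosen after its values were seen, was higher at 0.60 ± 0.24. FOLH1, a membrane carboxypeptidase outside the list and also chosen after its values were seen, lay at 28.1 to 66.1 in PI and 73.4 to 148 in CI (−1.09 ± 0.32).

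**Figure D1:**
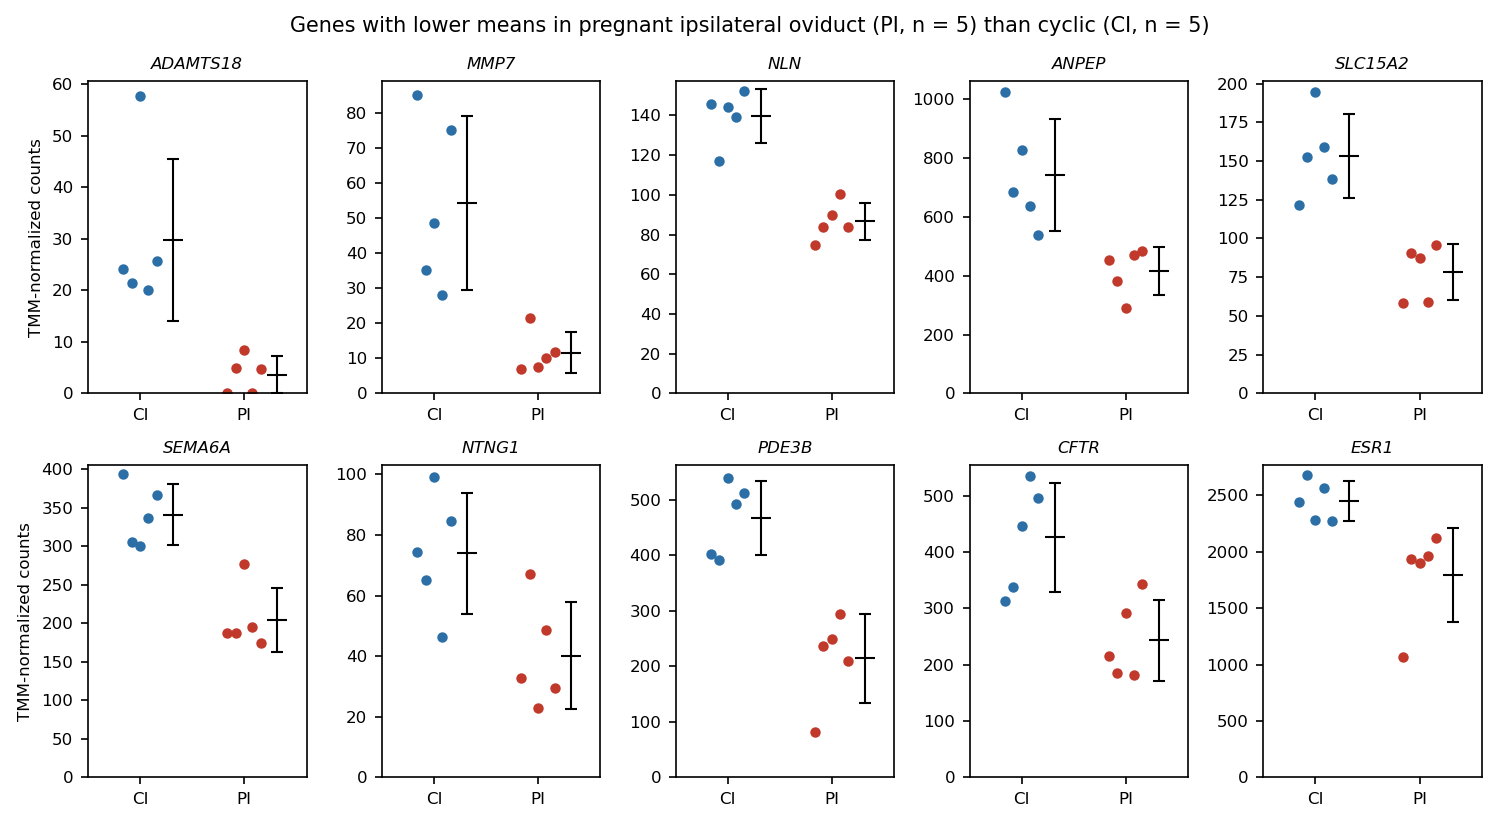
Normalized counts of 10 genes with lower means in pregnancy; each point is 1 library (CI blue, PI red, n = 5 each), and the black bar gives the mean and SD. PI and CI points do not overlap for 8 of the 10 genes; for NTNG1 and CFTR the highest PI library exceeds the lowest CI library.

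Guidance molecules steer axons and also cell adhesion and migration in epithelia. Of 44 measured, 2 had every PI library below every CI library, SEMA6A and PLXNA2, against 0.402% of all features. SEMA6A and the list were chosen with earlier results of these data known. SEMA6A, a transmembrane semaphorin, was at 187, 187, 277, 195 and 175 normalized counts in PI1 to PI5 and at 393, 306, 301, 337 and 366 in CI1 to CI5. All PI libraries except PI3 were below 200, and PI3 was still below the lowest CI library (−0.74 ± 0.15, adjusted p = 0.451). PLXNA2, a plexin receptor for semaphorins, chosen after its values were seen, lay at 141 to 229 in PI and 249 to 460 in CI (−0.66 ± 0.24). NTNG1, netrin G1, a membrane-anchored netrin, was at 32.8, 67.1, 22.9, 48.6 and 29.5 in PI and at 74.4, 65.0, 99.1, 46.4 and 84.7 in CI. PI2 and PI4 lay within the CI range (−0.88 ± 0.28). Members also differed in the other direction. SLIT1, a secreted ligand of ROBO receptors chosen after its values were seen, was at 39.8 in PI1, 6.71 to 13.6 in the other PI libraries and 0 to 7.501 in CI, with at most 17 reads in any PI library (1.50 ± 0.54), and the semaphorin SEMA3E, chosen likewise, differed by 0.55 ± 0.25. Of 44 guidance ligands and receptors 15 were higher and 29 lower, with a median of −0.08.

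Other genes from the 12 most extreme lower genes by p act in signalling and membrane biology. PDE3B, a phosphodiesterase that breaks down cyclic AMP, was at 82.0, 237, 249, 294 and 209 in PI1 to PI5 and at 402, 390, 538, 493 and 511 in CI1 to CI5. The groups were separate, with PI1 lowest (−1.22 ± 0.28, adjusted p = 0.509, and −0.94 without PI1, PI4 and CI3). SLC35F1, a solute carrier family member, lay at 16.4 to 72.9 in PI and 93.7 to 158 in CI (−1.57 ± 0.36, adjusted p = 0.509). SLITRK6, a transmembrane protein with leucine-rich repeats, lay at 3.35 to 13.0 and 24.6 to 50.7 (−1.80 ± 0.45, adjusted p = 0.821). PPP1R16B, a regulatory subunit of protein phosphatase 1, lay at 46.9 to 60.2 and 88.2 to 201 (−1.10 ± 0.29). These 3 genes also had no overlap between groups. ATP2A3, a calcium pump of the endoplasmic reticulum, overlapped, at 312 to 522 in PI and 474 to 2262 in CI (−1.18 ± 0.32).

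CFTR, the chloride channel that drives fluid secretion in many epithelia, was at 216, 185, 292, 181 and 344 normalized counts in PI1 to PI5 and at 314, 337, 447, 535 and 496 in CI1 to CI5. Only PI5 reached the CI range (−0.81 ± 0.20, adjusted p = 0.657). ANO1, a calcium-activated chloride channel chosen after its values were seen, lay at 396 to 964 in PI and 937 to 1102 in CI, with PI5 alone inside the CI range (−0.64 ± 0.26, and −0.33 without the 3 libraries). ATP1B1, the beta subunit of the sodium pump, differed by −0.59 ± 0.22, and the aquaglyceroporin AQP9, chosen after its values were seen, by −1.31 ± 0.56 (−0.76 without the 3 libraries). These 4 were the members of 28 ion channels and fluid secretion genes that were lower at an unadjusted p under 0.05 (14.3%, against 2.00% of all features). The calcium channel TRPV6, chosen likewise, was higher at 0.51 ± 0.20. Over the whole list 13 were higher and 15 lower, with a median of −0.17. CFTR and the list were chosen with earlier results of these data known. Among 35 genes of cyclic nucleotide signalling 14 were higher and 21 lower. GUCY1B3, a subunit of the nitric oxide receptor guanylate cyclase, differed by −0.51 ± 0.21.

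Steroid receptors are the route by which ovarian hormones act on the oviduct. ESR1, oestrogen receptor alpha, was at 1068, 1933, 1901, 1959 and 2118 normalized counts in PI1 to PI5 and at 2437, 2684, 2284, 2562 and 2270 in CI1 to CI5. All PI libraries were below all CI libraries and PI1 was far below the rest (−0.48 ± 0.24, and −0.33 without PI1, PI4 and CI3). FKBP5, a chaperone of steroid receptors that glucocorticoids and progesterone induce, was at 487, 848, 771, 913 and 1082 in PI and at 1421, 1120, 1001, 1319 and 1036 in CI, with PI5 inside the CI range (−0.56 ± 0.23). Of 24 genes of steroid reception and response 9 were higher and 15 lower, with a median of −0.04. The progesterone receptor PGR was not found under that symbol.

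Prostaglandins relax or contract the oviduct wall and act on its epithelium. PTGER2, a receptor for prostaglandin E2, was at 152, 188, 233, 179 and 137 in PI and 158, 125, 112, 246 and 156 in CI, and the groups overlapped (0.19 ± 0.19). PTGDR, a receptor for prostaglandin D2 that leukocytes also carry, was at 176, 121, 19.5, 40.3 and 7.09 in PI and at 19.3, 15.5, 3.60, 6.40 and 13.9 in CI. PI1, PI2 and PI4 were above the CI range, PI3 was level with its top and PI5 lay within it (1.79 ± 0.75, and 0.92 without the 3 libraries). AKR1B1, a reductase that can make prostaglandin F2 alpha, differed by −0.43 ± 0.21. Over the 16 members 6 were higher and 10 lower, with a median of −0.12.

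Receptors and ligands of the activin and BMP family included ACVR1C, also called ALK7, a receptor for activins and nodal. It was at 37.5, 36.0, 59.4, 23.5 and 14.2 in PI1 to PI5 and at 63.7, 50.1, 63.0, 76.8 and 83.6 in CI1 to CI5. PI3 alone lay within the CI range (−1.03 ± 0.30). The ligand TGFB2 differed by −0.52 ± 0.23 (−0.19 without the 3 libraries), and of 33 members 12 were higher and 21 lower. Among 26 growth factors and receptors, FGF7, a stromal factor that acts on epithelium, lay at 0 to 8.75 in PI and 5.36 to 14.4 in CI (−1.16 ± 0.47), while VEGFA, the angiogenic factor, lay at 105 to 267 and 77.6 to 128 (0.54 ± 0.25). Without the 3 libraries FGF7 differed by −0.64 and VEGFA by 0.36. FGF7 had at most 9 reads in any PI library. No member of 31 WNT pathway genes or of 20 Notch pathway genes reached an unadjusted p under 0.05, against 3.50% of all features. Their medians were −0.10 and −0.03 (−0.04 and −0.005 without the 3 libraries). The WNT effectors TCF7 and LEF1 differed in opposite directions, at 0.48 ± 0.24 (0.29 without the 3 libraries) and −0.44 ± 0.22. NR4A1, an immediate-early nuclear receptor, lay at 21.2 to 43.7 in PI and 52.2 to 76.1 in CI without overlap (−0.88 ± 0.26). Of the other 18 immediate-early genes, CTGF, a matrix-associated growth regulator, was higher at 0.42 ± 0.19 (0.72 without the 3 libraries).

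The gene with the smallest p for a higher level was EEF2K, the kinase that slows translation by phosphorylating elongation factor 2. It was at 1626, 1733, 1112, 1636 and 1150 normalized counts in PI1 to PI5 and at 711, 773, 684, 689 and 1014 in CI1 to CI5. Every PI library exceeded every CI library, of which CI5 was the highest (0.90 ± 0.21, adjusted p = 0.509). UNC5CL, a death domain protein of epithelia, was at 844, 252, 271, 579 and 513 in PI and at 113, 162, 324, 106 and 170 in CI, where CI3 exceeded PI2 and PI3 (1.44 ± 0.37, adjusted p = 0.960). CSMD2, a large transmembrane protein with complement-like domains, lay at 279 to 737 in PI and 139 to 393 in CI (1.01 ± 0.31). COL6A6, a collagen VI chain, lay at 16.8 to 56.2 and 9.00 to 15.5 without overlap (1.07 ± 0.34).

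The other higher genes of this set were smaller in difference or lower in level. RTP3, a receptor transporting protein, lay at 74.4 to 153 in PI and 36.8 to 73.8 in CI (0.79 ± 0.26), and OLFML2A, a secreted olfactomedin-like protein, at 854 to 1244 and 652 to 820 (0.41 ± 0.14), both without overlap. The scaffold protein MAGI2 lay at 71.3 to 150 and 27.2 to 82.5 (0.98 ± 0.32), the zinc finger protein ZBED4 at 539 to 921 and 396 to 609 (0.55 ± 0.17), and the splicing factor SRSF7 at 348 to 511 and 247 to 420 (0.45 ± 0.15). CHRM1, a muscarinic acetylcholine receptor, lay at 6.79 to 46.9 and 2.14 to 10.6 (1.29 ± 0.39, and 0.84 without the 3 libraries). FAM186A and PLCXD3 rest on few reads. They had at most 9 and 15 reads in any PI library, and differed by 1.34 ± 0.40 and 1.28 ± 0.37.

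**Figure D2:**
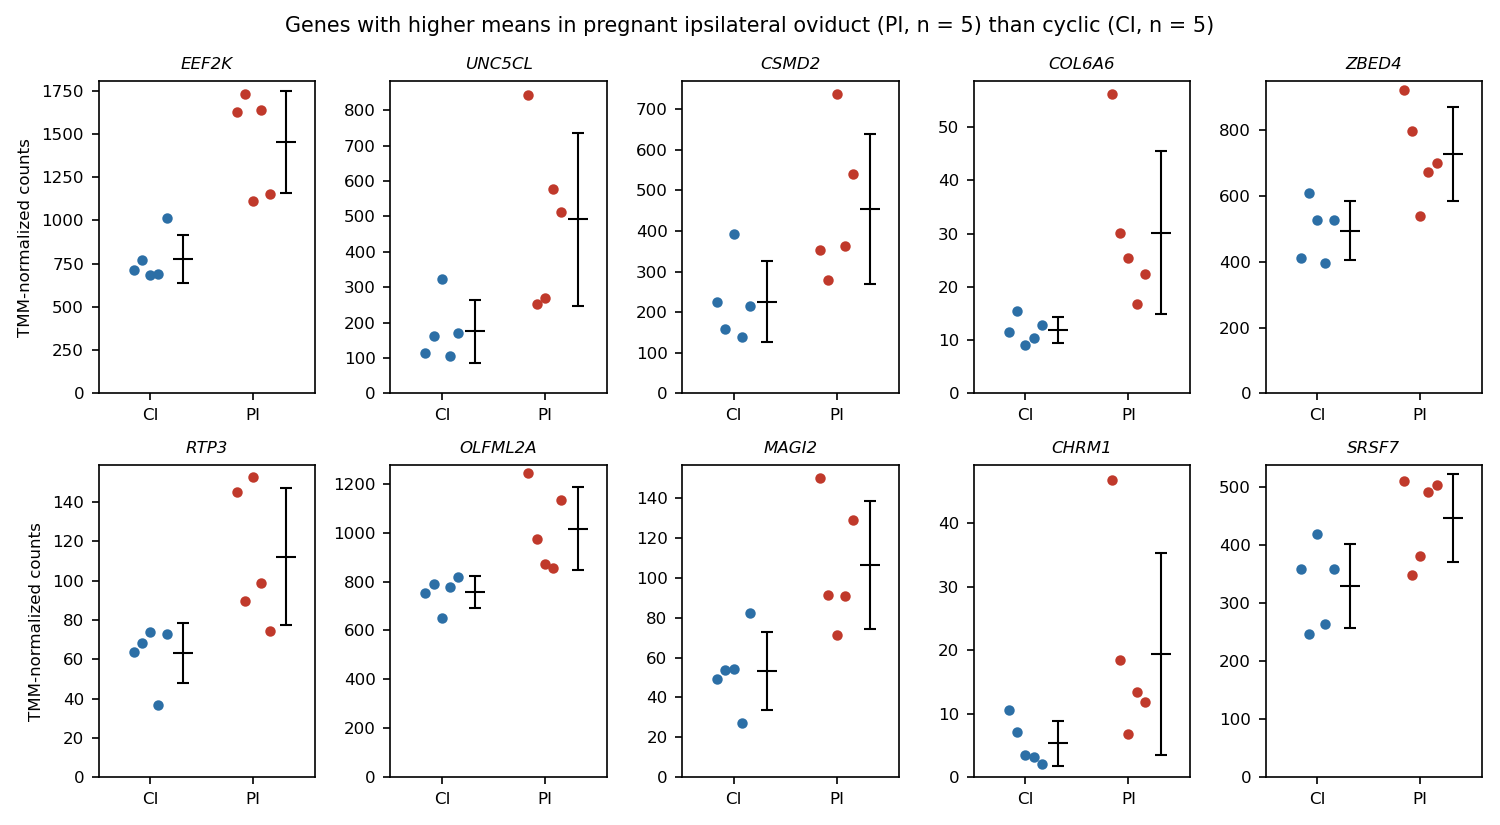
Normalized counts of 10 genes with higher means in pregnancy; each point is 1 library (CI blue, PI red, n = 5 each), and the black bar gives the mean and SD. EEF2K, COL6A6, RTP3 and OLFML2A show no overlap between groups; the other 6 genes overlap.

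Interferon-stimulated genes had higher means in pregnancy, but the 5 pregnant libraries fell far apart. ISG15, a ubiquitin-like antiviral modifier, was at 330, 33.1, 264, 381 and 22.4 normalized counts in PI1 to PI5 and at 86.9, 16.1, 27.0, 22.4 and 40.7 in CI1 to CI5. PI1, PI3 and PI4 were above every CI library, PI2 and PI5 were within the CI range, and CI1 was the highest cyclic library (1.82 ± 0.81, and 0.75 without PI1, PI4 and CI3). MX1, an antiviral GTPase, was at 5940, 1611, 4273, 4051 and 591 in PI and at 1346, 965, 589, 839 and 1133 in CI. Here PI2 also exceeded the cyclic libraries and PI5 alone did not (1.41 ± 0.55, and 0.60 without the 3 libraries). OAS2, which makes the activator of RNase L, was at 3440, 1357, 3619, 3950 and 896 in PI and at 1823, 1035, 969, 965 and 1063 in CI (1.00 ± 0.40, and 0.47 without them).

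The same 3 pregnant libraries were high in other members. RTP4, an interferon-induced receptor chaperone, was at 890, 299, 586, 555 and 255 in PI and at 283, 151, 277, 146 and 314 in CI (1.06 ± 0.38). HERC6 and ZNFX1, both chosen after their values were seen, are a ligase of the HERC family and a helicase-like RNA sensor. They differed by 1.81 ± 0.85 and 0.66 ± 0.26, and by 0.61 and 0.30 without the 3 libraries. Of 38 interferon effectors 34 were higher (against 48.1% of all features), with a median of 0.73. At an unadjusted p under 0.05 there were 6 higher and 0 lower (15.8%, against 1.50% higher among all features). Without PI1, PI4 and CI3, 28 of 38 were higher and the median was 0.24, and without PI5 alone the median was 1.11. The 6 measured members of the OAS and IFIT families were all higher, with a median of 0.90, and 0.26 without the 3 libraries. IFIT1, an RNA-binding effector, was at 834, 82.6, 664, 772 and 59.1 in PI and at 297, 67.4, 106, 45.6 and 108 in CI (1.50 ± 0.82, and 0.56 without the 3 libraries). RSAD2 (viperin) and IFI44, both antiviral effectors, differed by 1.26 ± 0.55 and 1.12 ± 0.79, the latter by 0.57 without the 3 libraries. IFIT3, OAS1 and USP18 were not found under those symbols.

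Sensors and transcription factors act upstream of these effectors. The cytosolic RNA sensors DDX58 (RIG-I) and IFIH1 (MDA5) differed by 0.52 ± 0.43 and 0.69 ± 0.41, and by 0.05 and 0.22 without the 3 libraries. Of 18 nucleic acid sensors and adaptors 13 were higher, with a median of 0.27 that was 0.05 without PI1, PI4 and CI3. IRF7, a factor that amplifies interferon production, was at 1317, 108, 1105, 1324 and 54.3 in PI and at 499, 73.9, 166, 59.2 and 110 in CI (1.61 ± 0.91, and 0.58 without the 3 libraries). IRF9, a DNA-binding factor of the type I interferon response, differed by 0.87 ± 0.50 (0.36 without the 3 libraries). The 23 receptors, kinases, STATs and IRFs had a median of 0.02 (0.002 without the 3 libraries), with 12 higher and 11 lower, and the sign of that median changed with the scaling. The interferon-induced chemokine CXCL10 differed by −0.09 ± 0.81 (−0.93 without the 3 libraries), with CI1 at 275 and the other CI libraries at 18.0 to 90.6.

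**Figure D3:**
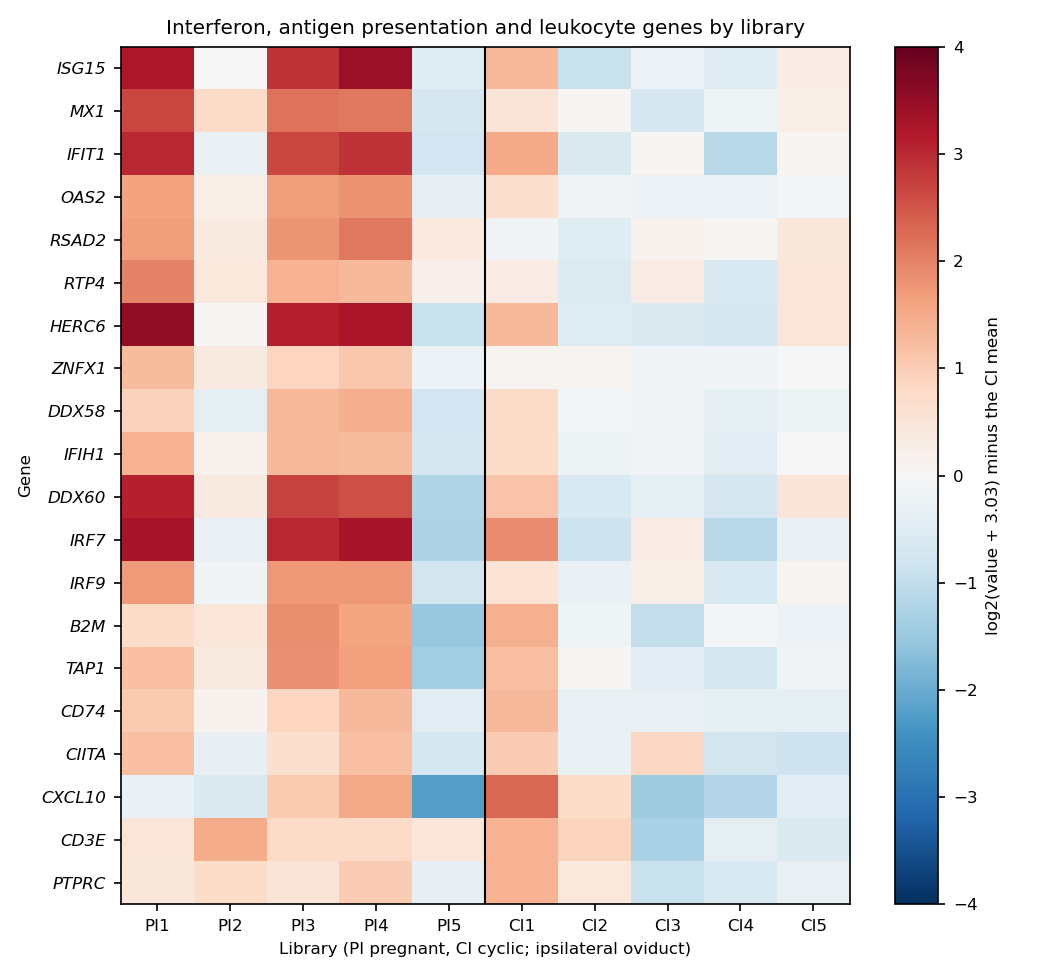
Log2(value + 3.03) minus the CI mean for interferon, antigen presentation and leukocyte genes (vertical axis) in each of the 10 libraries (horizontal axis). PI1, PI3 and PI4 are red (above the CI mean) for most interferon genes, PI2 and PI5 are near or below it, and CI1 is the reddest cyclic library.

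Antigen presentation genes were uneven across libraries, with CI1 high. CD74, a chaperone of class II molecules, was at 48871, 26232, 43269, 57606 and 17571 normalized counts in PI1 to PI5 and at 58488, 19269, 19400, 18598 and 18043 in CI1 to CI5. CI1 was the highest of all 10 libraries (0.59 ± 0.35, and 0.13 without the 3 libraries). CIITA, the transcriptional activator of class II genes, differed by 0.41 ± 0.42 (0.08 without the 3 libraries). Of 11 class II genes 8 were higher, with a median of 0.32 that was 0.02 without PI1, PI4 and CI3 and, with 1 library left out, 0.14 (without PI3) to 0.54 (without CI1). Reads of near-identical class II copies may have been split by the counting. Of 15 class I and peptide loading genes 7 were higher, with a median of −0.02. It was 0.05 with DESeq2 and −0.18 without the 3 libraries, where 5 were higher and 10 lower. TAP1, a peptide transporter, was at 609, 341, 940, 822 and 98.0 in PI and at 611, 272, 196, 159 and 240 in CI (0.73 ± 0.58, and 0.16 without the 3 libraries). B2M, beta-2 microglobulin, lay at 2342 to 24412 in PI and 3400 to 18019 in CI (0.63 ± 0.56, and 0.04 without the 3 libraries).

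Of 22 T and NK cell markers 21 were higher (median 0.69), and 19 without PI1, PI4 and CI3 (median 0.35). Without CI1 alone the median was 1.03. Their summed level lay at 403 to 1006 normalized counts in PI and 326 to 1100 in CI, so the groups overlapped, and CI1 held the highest sum. CD3E was at 25.8, 55.4, 32.2, 31.9 and 26.0 in PI and at 51.2, 35.2, 5.40, 12.8 and 10.7 in CI (0.80 ± 0.45). At an unadjusted p under 0.05 there were CD8A, a coreceptor of cytotoxic T cells (1.02 ± 0.41, and 0.46 without the 3 libraries), the adhesion receptor CD2 (0.85 ± 0.37) and CD3G, chosen after its values were seen (0.93 ± 0.44). These 3 were 13.6% of the list, against 1.50% higher among all features. The mean T and NK level was highest in CI1 and lowest in CI4, and in pregnancy it was highest in PI2, where interferon effectors were low. The part of these cells in the interferon gene levels was not tested.

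Other leukocyte lists had smaller medians. Of 10 pan-leukocyte markers 8 were higher, with a median of 0.14 that was −0.17 without the 3 libraries, and PTPRC (CD45) lay at 149 to 387 in PI and 101 to 498 in CI (0.48 ± 0.38, and 0.08 without the 3 libraries). Macrophage and dendritic cell markers had 7 of 17 higher, with a median of −0.02, and 2 of 17 higher without the 3 libraries, with a median of −0.24. The integrin ITGAM, a myeloid adhesion receptor, was the 1 member lower at an unadjusted p under 0.05 (−0.69 ± 0.27, and −0.43 without the 3 libraries; 5.88% of the list, against 2.00% of all features). Only 5 of 12 B and plasma cell markers passed the filter. The antibody joining chain IGJ was at 39.8, 347, 266, 208 and 115 in PI and at 856, 216, 211, 103 and 95.4 in CI. Of 16 chemokines and cytokines 13 were higher, and their median of 0.26 was 0.05 without the 3 libraries. CXCL17, a mucosal chemokine, lay at 71.0 to 251 in PI and 13.6 to 95.6 in CI (1.22 ± 0.50). Complement genes had a median of 0.16 over 9 members (0.003 without the 3 libraries), and C3 was not found under that symbol.

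Small differences ran through the ciliary axoneme, where 44 of 48 genes were higher. The median was 0.20, and without PI1, PI4 and CI3 it was also 0.20 with 40 of 48 higher. It was 0.10 without CI1 alone, the library with the lowest mean level of the list. DNAH5, a dynein heavy chain of the outer arm, was at 27541, 23074, 28744, 21519 and 23790 normalized counts in PI1 to PI5 and at 17545, 22177, 17423, 22172 and 23667 in CI1 to CI5. PI1, PI3 and PI5 were above the CI range and PI2 and PI4 within it (0.28 ± 0.16). CCDC40, which helps set the spacing of axonemal complexes, differed by 0.34 ± 0.15, and DNAH17, a less abundant dynein heavy chain, by 1.05 ± 0.48. Only these 2 reached an unadjusted p under 0.05 (4.17%, against 1.50% higher among all features). Of 16 regulators of ciliated cell fate 11 were higher (median 0.09). RFX2, a ciliogenic transcription factor, was at 1479 in PI1, 950 to 1072 in the other PI libraries and 710 to 1075 in CI (0.36 ± 0.17). FOXJ1 differed by 0.24 ± 0.18 (0.09 without the 3 libraries).

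Of 16 secretory cell genes 9 were higher, and their median of 0.05 was negative when libraries were scaled to totals alone and −0.08 without the 3 libraries. With 1 library left out the median was mostly below 0, from −0.14 (without CI2) to 0.10 (without CI3). MUC1, the membrane mucin, was at 96.1, 219, 100, 242 and 171 in PI and at 461, 366, 225, 371 and 197 in CI. PI2 and PI4 lay within the CI range (−0.98 ± 0.35). LHX1, a homeobox factor of the Müllerian epithelium, lay at 5.03 to 50.8 and 20.9 to 119 (−1.54 ± 0.56, and −0.77 without the 3 libraries). PAX8 differed by −0.12 ± 0.15 (−0.06 without the 3 libraries). The polymeric immunoglobulin receptor PIGR, chosen after its values were seen, differed by 0.90 ± 0.58 (0.13 without the 3 libraries). Junction and adhesion genes were higher in 12 and lower in 23 of 35. Claudin CLDN10 (−1.36 ± 0.52) and CGNL1, paracingulin (−0.51 ± 0.19), were lower at an unadjusted p under 0.05, as were the cadherins CDH6 (−0.84 ± 0.34) and CDH3 (−0.90 ± 0.42) and the desmoglein DSG2 (−0.59 ± 0.28), while claudin CLDN1 was higher (1.00 ± 0.39). The last 4 were chosen after their values were seen. The 5 lower members were 14.3% of the list, against 2.00% of all features. Without the 3 libraries the differences were −0.34 for CGNL1, −0.36 for CDH3 and 0.58 for CLDN1.

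Ribosomal protein genes were lower in all 56 measured members (against 51.9% of all features), although none reached an unadjusted p under 0.05 (against 3.50%). The median was −0.45, and −0.41 without PI1, PI4 and CI3, where again 56 of 56 were lower. RPS24 was at 1401, 4243, 3092, 2442 and 2421 normalized counts in PI1 to PI5 and at 4379, 5246, 2334, 4123 and 3924 in CI1 to CI5. PI1 was the lowest library and CI3 lay below PI2, PI3, PI4 and PI5 (−0.60 ± 0.29). The mean log2 level of the list was 10.4, 12.4, 11.2, 11.03 and 10.9 in PI and 11.9, 12.3, 10.6, 11.997 and 11.5 in CI. PI2 was the highest library of all and CI3 the lowest but PI1, so the median ranged from −0.74 without PI2 and −0.71 without CI3 to −0.26 without PI1. Mitochondrial transcripts took 4.83% of the reads in PI1, 8.62% in CI3 and 8.13% in PI5, against 2.03 to 2.97% in the other 7 libraries; their part in the ribosomal levels was not tested.

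All 33 nuclear genes of the respiratory chain were lower (median −0.21), and 29 of 33 were without the 3 libraries. With 1 library left out the median was −0.35 without CI3, −0.33 without PI2, −0.11 without CI2, −0.08 without PI1 and −0.08 without CI4. None reached an unadjusted p under 0.05 (against 3.50% of all features). The mitochondrially encoded genes went the other way, with 12 of 13 higher and a median of 0.18, which was 0.47 without PI1, PI4 and CI3 and −0.01 without PI1 alone, and which reached 0.56 without CI3 alone. ATP6, a subunit of ATP synthase, was at 18113, 20574, 5357, 16724 and 42370 in PI and at 9160, 6994, 22678, 6451 and 7096 in CI, where CI3 stood apart (0.88 ± 0.51).

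**Figure D4:**
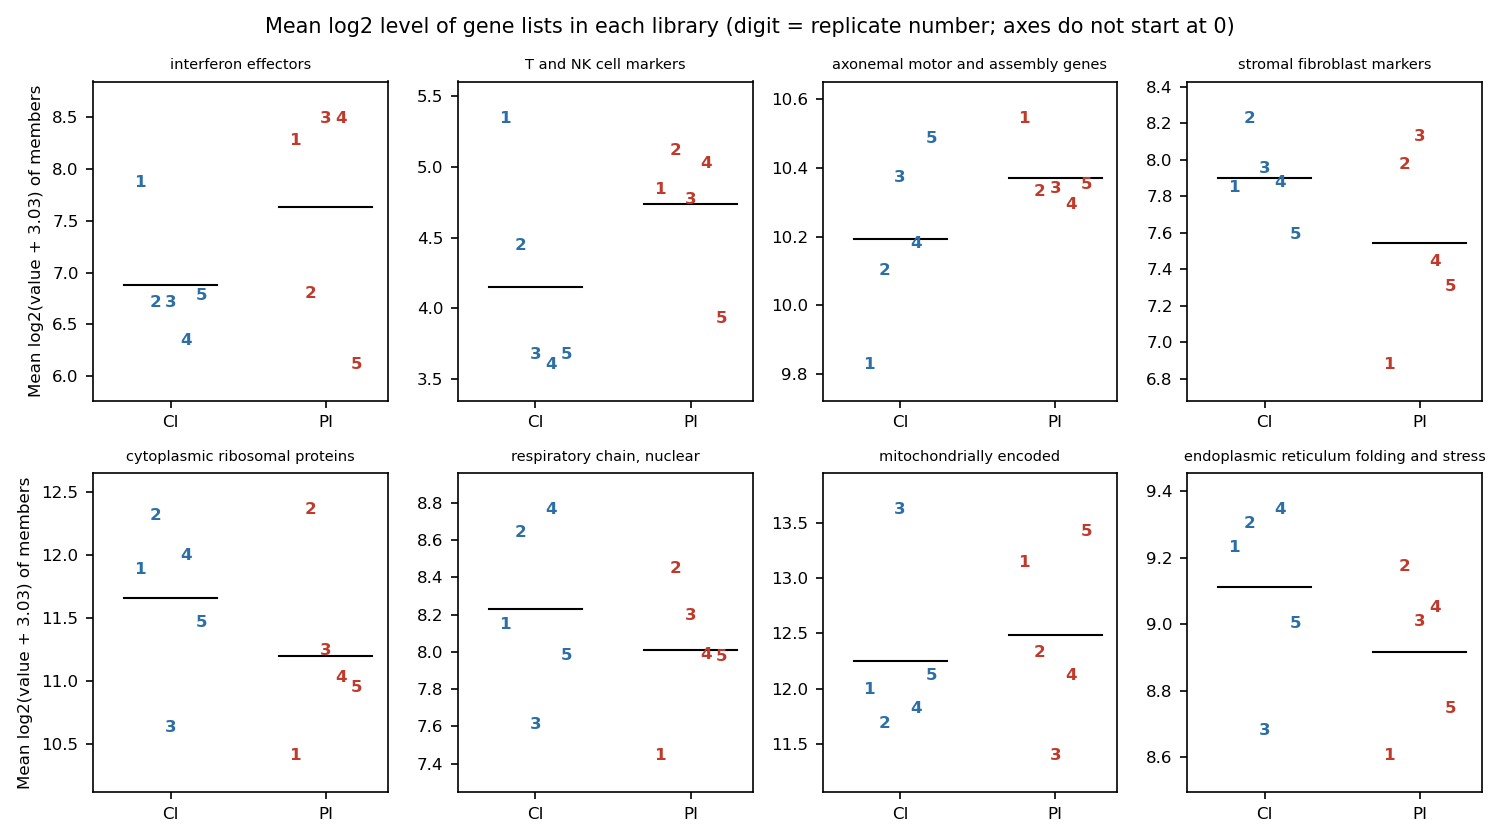
Mean log2(value + 3.03) of the members of 8 gene lists in each library; digits are replicate numbers (CI blue, PI red) and black lines the group means. PI1 and CI3 are low for the ribosomal and nuclear respiratory lists, PI2 and PI5 are the low pregnant libraries for interferon effectors, and PI1 is the lowest for stromal markers.

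Of 24 genes of folding and stress in the endoplasmic reticulum 22 were lower (median −0.21, and −0.25 without the 3 libraries). The median was −0.11 without PI1 alone and −0.13 without CI4 alone. HSPA5, the main chaperone of that compartment, was at 1094, 1726, 1336, 1396 and 1250 in PI and at 1876, 1887, 830, 1919 and 1503 in CI (−0.19 ± 0.27, and −0.33 without the 3 libraries). ERN1, the sensor IRE1 alpha, differed by −0.37 ± 0.16, and CREB3L2, a stress-regulated transcription factor, by −0.25 ± 0.11. These were the 2 members lower at an unadjusted p under 0.05 (8.33%, against 2.00%). Of 31 antioxidant and glutathione enzymes 24 were lower (median −0.19, with −0.08 without PI1, −0.09 without CI4, −0.11 without CI2 and −0.30 without CI3). TXN2, mitochondrial thioredoxin, was at 340, 347, 340, 335 and 298 in PI and at 370, 390, 427, 478 and 355 in CI, without overlap (−0.27 ± 0.14). Genes of sterol and fatty acid synthesis had a median of −0.05 over 29 members (−0.14 without the 3 libraries), and nutrient transporters −0.08 over 32 (−0.02).

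Of 24 stromal fibroblast markers 20 were lower (median −0.42), but without PI1, PI4 and CI3 11 of 24 were lower and the median was 0.02. Without PI1 alone it was −0.18. OGN, osteoglycin, was at 21.1, 80.7, 33.9, 36.9 and 54.3 in PI and at 93.7, 163, 79.2, 50.4 and 75.008 in CI, with PI2 and PI5 in the CI range (−1.001 ± 0.40). The proteoglycan LUM differed by −0.90 ± 0.37 (−0.42 without the 3 libraries), and the collagen chain COL6A3, chosen after its values were seen, by −0.74 ± 0.35 (−0.47). COL1A2 was at 220, 753, 1784, 396 and 604 in PI and at 772, 1024, 623, 1116 and 558 in CI (−0.42 ± 0.48), and was 0.15 without the 3 libraries. The summed level of these markers lay at 4431 to 11528 in PI and 8796 to 11326 in CI. Smooth muscle genes had a median of −0.03 over 9 members (−0.07 without the 3 libraries). CNN1, calponin, was higher without overlap, at 43.8 to 66.1 against 26.1 to 40.0 (0.57 ± 0.25). Genes of DNA replication and mitosis were higher in 32 of 47 with all libraries but lower in 41 of 47 without PI1, PI4 and CI3, with medians of 0.10 and −0.31. TOP2A was at 239, 180, 648, 1003 and 102 in PI and at 356, 509, 258, 158 and 498 in CI, a difference of −0.07 ± 0.60 whose sign turned with edgeR and DESeq2 and which was −0.59 without the 3 libraries.

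**Figure D5:**
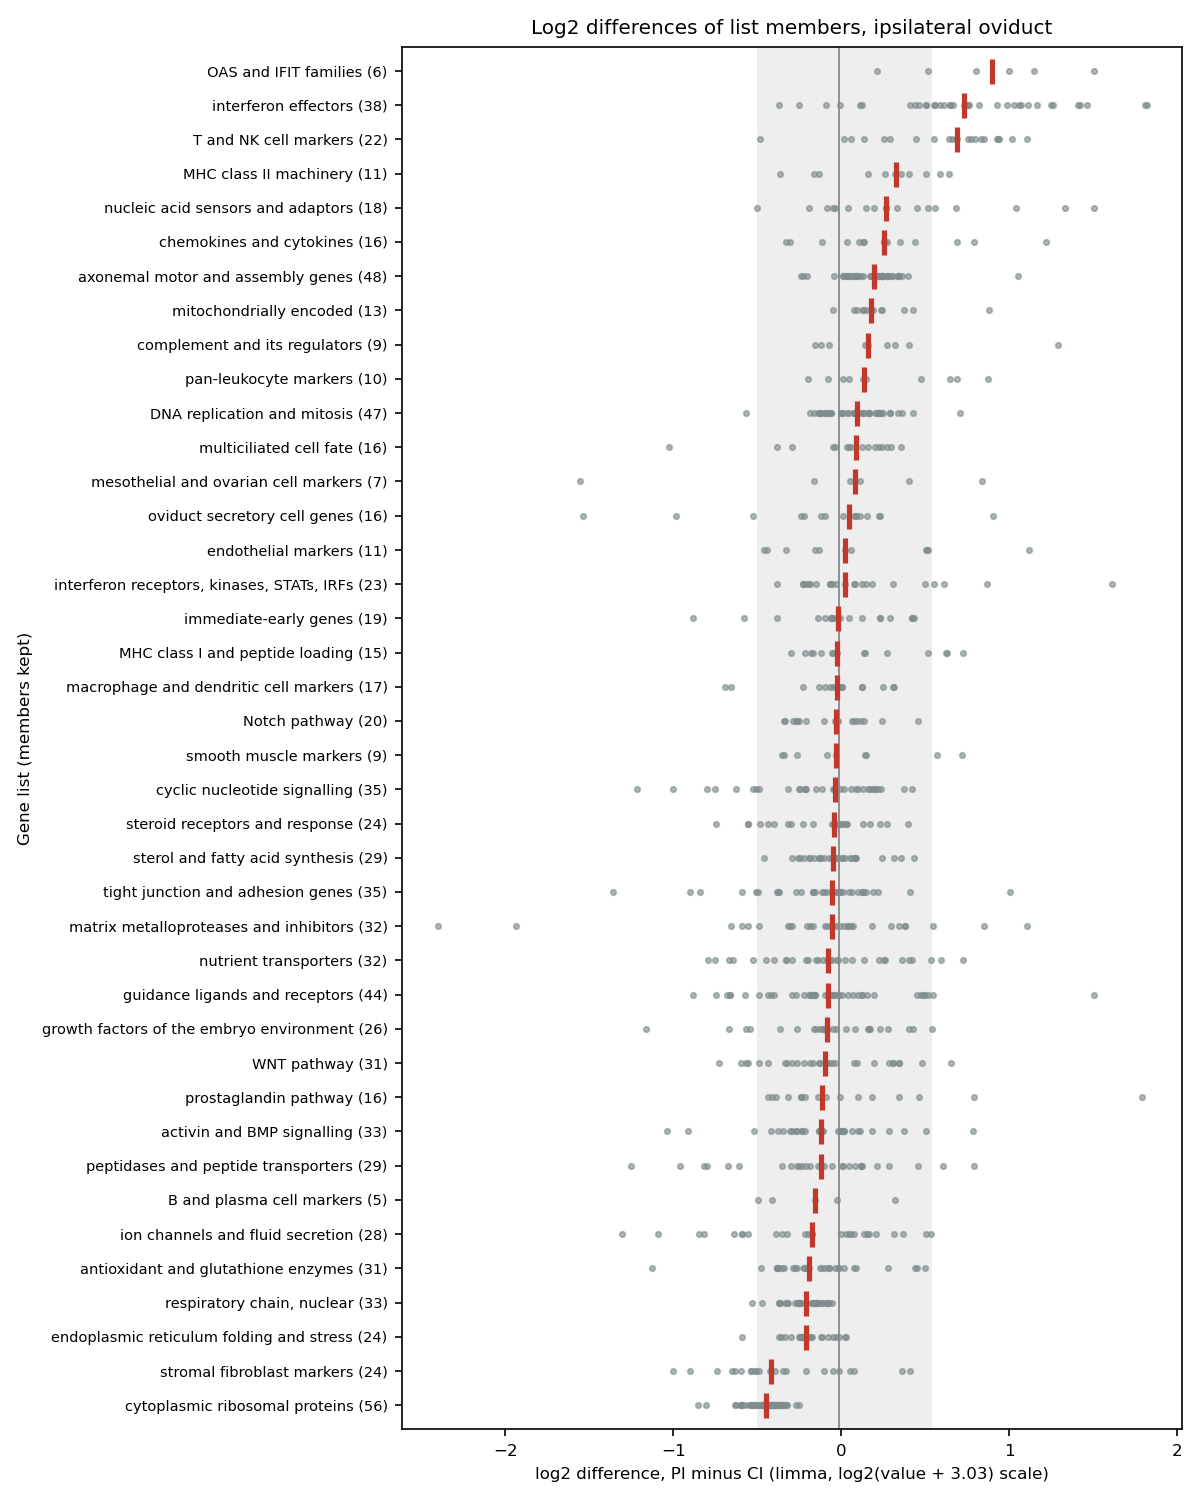
Log2 differences of PI minus CI for the members (grey points) and the median (red bar) of each gene list with at least 5 members kept; grey shading is the 5th to 95th percentile of all features (−0.49 to 0.53). Interferon effectors and T and NK cell markers lie to the right of most lists, and ribosomal proteins and stromal markers to the left.

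The difference between pregnant and cyclic mares was also tested against that of the contralateral oviduct. That test and the main test of PI against CI come from the same fit, which treats all libraries as independent. No feature passed the test between sides (0 of 14692), and 47 (0.320%) reached an unadjusted p under 0.05. PI and PC libraries of the same number deviated together in all 5 pairs (correlations of 0.53 to 0.70), and CI and CC libraries in 3 of 5 pairs over 0.1 (−0.04 to 0.68). With libraries of 1 status and number as a random block (consensus correlation 0.393), again 0 passed and 225 (1.53%) reached an unadjusted p under 0.05. In the main test of PI against CI, that block gave 237 higher and 321 lower features at an unadjusted p under 0.05. Contralateral log2 differences were −1.86 ± 0.49 for ADAMTS18, −0.76 ± 0.14 for NLN, −0.48 ± 0.15 for SEMA6A, −1.62 ± 0.42 for MMP7, −0.999 ± 0.19 for ANPEP and 0.77 ± 0.21 for EEF2K. Some lower genes differed less on that side. SLITRK6 was at −0.67 ± 0.45, against −1.80 ipsilaterally. SLC35F1 was at −0.76 ± 0.36, against −1.57, and ATP2A3 at −0.59 ± 0.32, against −1.18. Among the 12 most extreme higher genes by p, PLCXD3 and FAM186A had contralateral differences below 0, at −0.35 ± 0.37 and −0.01 ± 0.40, with differences between sides of 1.63 ± 0.52 and 1.36 ± 0.57 and an adjusted p of 1.00. SRSF7 differed by 0.08 ± 0.15 contralaterally. The median of interferon effectors was 1.16 contralaterally, against 0.73 ipsilaterally. That of nuclear respiratory genes was 0.09 against −0.21 and that of DNA replication and mitosis 0.92 against 0.10; no test of these list differences was made.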

How the data were processed

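RNA sequencing of 20 libraries of equine oviduct epithelium was used, with 5 libraries in each of 4 groups and all 20 columns matched to samples by name. Per the labels' protocols, RNeasy total RNA with DNase digestion went into a stranded total RNA kit with depletion of ribosomal RNA, although another label gives polyA RNA. CASAVA 1.8 is named in the submitters' processing notes. For the aligner, read counter, strand setting, genome build and annotation the status is "not given in the sources used here", so no coordinates are printed and overlapping, antisense and near-identical genes are uncertain.

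Per the file, the deposited signal is read counts scaled by TMM, so that each library's reads carry 1 factor. All values were whole multiples of 1 step per library (100% within 0.01 reads), which recovered the reads, from 2795168 to 10126484 per library. No pair of libraries of a group agreed within sampling noise.

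Of 26740 features, 14692 above 1 CPM (of the column total) in at least 5 of 20 libraries were kept. The limma (3.58.1, R 4.3.3) model had 4 group means over 20 libraries on log2 of the value plus 3.03 normalized counts (0.5 CPM), with trend and robust moderation, 2-sided tests and Benjamini-Hochberg adjustment at 0.05. At low counts the added value shrinks log2 differences. edgeR 4.0.16 and DESeq2 1.42.0 on the recovered reads, other scalings, filters and pseudocounts, library weights, blocks and left-out libraries were alternatives. The procedure was tested on simulated data.

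The members and the 41 gene lists were chosen with earlier results of these data known. Genes were named by rule: the 12 most extreme symbols by p in each direction, a fixed set, and the 1 or 2 members of each list with the smallest p. Some genes that the rule names are not reported here. Others are said to be chosen after their values were seen. Lists are described by counts and medians, without a test.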

Additional observations from a re-analysis of the deposited data

Results flagged for a closer look

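In 21 of 224 groups of 5 libraries (112 genes, PI and CI), 1 library lay further from the rest than Dixon's 95% limit allows. Chance gives about 1 in 20 only for independent, normally spread values. Here the limit was applied to normalized counts without logs, many genes were chosen by their values, and related genes can be flagged together. The 21 are therefore not set against chance. CI1 accounted for 10 of these. It was the highest cyclic library for IFIT1 (297 normalized counts), OAS2 (1823), IRF7 (499), DDX58 (410), CXCL10 (275), B2M (18019), TAP1 (611), CD74 (58488), the T cell gene CD2 (83.0) and the antibody joining chain IGJ (856). The mean log2 level of T and NK cell markers was also highest in CI1 of all 10 libraries, and the part of those cells was not tested.

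PI1, the library with the fewest reads, was low for the oestrogen receptor ESR1 (1068) and high for SLIT1 (39.8) and the ciliogenic factor RFX2 (1479). CI3 was high for the mitochondrial gene ATP6 (22678) and for ADAMTS18 (57.6). CI4 was low for RTP3 (36.8) and high for the water and glycerol channel AQP9 (2514). Single libraries stood apart for EEF2K in CI5 (1014), SEMA6A in PI3 (277), CD3E in PI2 (55.4) and TXN2 in PI5 (298). For EEF2K, SEMA6A and ADAMTS18 the groups stayed separate with that library included.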

How the results depend on the processing

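Across 23 other settings the number of genes past the adjusted threshold stayed at 0, and the smallest adjusted p of any setting was 0.0721 (DESeq2). Genes higher at an unadjusted p under 0.05 numbered 220, and 380 without a filter, 126 with values scaled to library totals, 395 with library weights and 100 without PI1, PI4 and CI3. Lower genes numbered 294, and 514 with library weights and 129 without PI1, PI4 and CI3. Leaving out 1 library gave 104 (without PI1) to 347 (without CI3) higher and 148 (without PI1) to 481 (without CI3) lower genes, with 339 higher without PI5 and 444 lower without PI2. The cause of these shifts was not tested. With the replicate number as a block, 352 genes were higher and 376 lower. Same-numbered PI and CI libraries deviated with correlations of −0.147 to 0.587, and 1 of 5 PI and 1 of 5 CI libraries correlated best with its own number, so they share only a number. No gene passed the difference between sides in any setting run.

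Of 138 genes, 5 turned sign in some setting, in 19 of 3156 values. CXCL10 was 0.064 with library weights and −0.49 to 0.48 when 1 library was left out. TOP2A was 0.20 with library weights, 0.29 with edgeR, 0.31 with DESeq2 and −0.49 to 0.32 with 1 left out. IGJ was 0.0819 and COL1A2 0.15 without PI1, PI4 and CI3, and IGJ −0.6995 to 0.0922 and ITGA2B −0.023 to 0.138 with 1 left out. Low depth in PI1 limits genes under 7.03 normalized counts, such as ADAMTS18.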

Other observations

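NCAM1, a neural cell adhesion molecule, KCNS3, a modulatory potassium channel subunit, and DAPK1, a kinase that promotes cell death, were chosen after their values were seen because their groups did not overlap. NCAM1 was at 28.1, 240, 241, 159 and 88.6 normalized counts in PI1 to PI5 and at 544, 613, 405, 828 and 396 in CI1 to CI5 (log2 difference −2.14 ± 0.61, SE). KCNS3 lay at 93.7 to 194 in PI and 194 to 303 in CI, the top of the first just below the bottom of the second (−0.69 ± 0.24, and −0.35 without PI1, PI4 and CI3), and DAPK1 at 738 to 1057 and 510 to 686 (0.42 ± 0.17). None passed the adjusted test.

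Lists of other cells, of transport and of antioxidant enzymes gave a few members at an unadjusted p under 0.05. Higher were 2 of 9 smooth muscle genes (22.2%) and 3 of 32 nutrient transporters (9.38%), against 1.50% of all features. Of these transporters SLC5A2 and SLC2A4 are named. Of 7 mesothelial and ovarian genes 1 was higher and 1 lower (14.3% each). Of 31 antioxidant and glutathione enzymes 1 was lower (3.23%), against 2.00% lower among all features. SYNPO2, a smooth muscle actin-binding protein, differed by 0.72 ± 0.30. CYP19A1, aromatase, lay at 0 to 28.9 in PI and 15.5 to 43.2 in CI (−1.55 ± 0.73, and −0.48 without those 3 libraries), and the mesothelial gene LRRN4 at 3.54 to 13.4 and 1.07 to 4.00 with at most 8 reads in PI (0.84 ± 0.36, and 0.49). The glucose transporters SLC5A2 and SLC2A4 differed by 0.59 ± 0.24 and 0.72 ± 0.34 (0.19 and 0.44), both at low levels, and the glutathione transferase GSTA4 by −0.48 ± 0.16. Of 11 endothelial genes 6 were higher, with a median of 0.03 that was −0.02 with values scaled to library totals and −0.21 without those 3 libraries. TEK, the angiopoietin receptor, differed by 1.12 ± 0.60.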
